A study of Homo sapiens with 6 samples.

Results

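The 36 genes described here encode proteins of mismatch repair, base excision and single-strand break repair, poly(ADP-ribose) polymerase (PARP) signalling and direct reversal of alkylated bases. They were listed by symbol according to what their proteins do, by a rule that uses no measured value, although earlier results of these data were known when the list was made. All 36 were found among the 21447 genes of the deposited files, and all 36 passed the filter on low counts that left 14322 genes for testing. The libraries came from U-2 OS cells, a human osteosarcoma line, so that each value rests on 1 cell line. Untreated cells (3 libraries) were compared with irradiated cells (3 libraries), which had received 4 Gy of ionizing radiation (IR) 24 h earlier, and the labels name no genetic change and no further agent for either group. The comparison asks how transcript levels of these repair genes differed a day after irradiation. The RNA is given as poly(A) selected, with a kit for mRNA, by the labels and as total RNA by the study's methods, and the study describes the samples of a group as triplicate and independent. Whether that means separate cultures is not spelled out in the sources used here, and the p-values measure the spread between these libraries.

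Estimated counts totalled 18573309 to 22953834 in 5 libraries and 45308792 in IR replicate 3. The name of the deposited table of IR replicate 3 carries a mark that could stand for a repeat, and the sources used here do not say whether this library was made or sequenced again. It stood apart from the other IR libraries, with a chi-square per gene of 29.1 and 32.3 against them, where IR replicates 1 and 2 differed by 5.96 and the untreated pairs by 3.46 to 9.22. This measure uses unscaled counts and grows with depth, and IR replicate 3 was the deepest library. On the first principal component of scaled log2 counts (46.3% of variance), it lay at 32.1, beside 16.0 and 20.9 for IR replicates 1 and 2. On the second (17.4%), untreated replicate 3 lay at -26.2, and untreated replicates 1 and 2 at 21.4 and 10.4. Most markers of other lineages were low: 6 of 7 blood cell markers were below 1 CPM (estimated counts scaled to a common library size) in every library, 4 of them at 0, and 3 of 5 endothelial and 4 of 8 epithelial markers were below 1 CPM in every library. The epithelial markers EPCAM (8.55 to 10.6 CPM), CLDN4 (6.21 to 9.17 CPM) and CDH1 (1.87 to 3.43 CPM) and the endothelial marker VWF (2.71 to 4.47 CPM) were above 1 CPM in every library, EPCAM and CLDN4 at levels above those of the scarce members MGMT and NEIL1, and their part in the members' values was not tested. Of 11 mesenchymal and bone markers, 7 were at 1 CPM or more in every library, whereas the bone genes IBSP and BGLAP were below 1 CPM throughout. Of 25 target genes of p53, 25 were called higher in irradiated cells, and the median of their log2 fold changes was 0.80.

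Mismatch repair removes wrongly paired bases left behind by replication: MutS complexes recognize the mismatch, MutL complexes nick the new strand, and the stretch is cut out and copied again. In base excision repair a glycosylase cuts out a damaged base, an AP endonuclease opens the backbone at the empty site, and a polymerase, a scaffold protein and a ligase close the gap. PARP1 and its relatives bind strand breaks and attach chains of ADP-ribose that recruit repair factors, and glycohydrolases remove these chains again. Direct reversal enzymes restore alkylated bases without cutting the strand.

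Of the 36 members, 14 (38.9%) were called at an adjusted p under 0.05 by the quasi-likelihood test of edgeR, where 30.1% of all genes tested were called. The 6 that rose (16.7%, beside 15.5% of all genes) were PMS2, NTHL1, NEIL1, MPG, PARP3 and MGMT. The 8 that fell (22.2%, beside 14.5% of all genes) were MSH6, MBD4, NEIL3, LIG3, PARP1, PARP4, TNKS and TNKS2. The untreated and IR libraries did not overlap for 22 members (61.1%, beside 47.1% of all genes), with 8 higher and 14 lower in the irradiated cells. These shares are given beside those of all genes and nothing particular to the members is read from them. Most changes were small: the median log2 fold change over the 36 members was -0.14 (0.01 over all genes tested), and 4 members, NEIL1, MPG, PARP3 and MGMT, had a log2 fold change beyond 0.5 in size. In bulk libraries, fewer cells of one kind and less RNA per cell cannot be told apart. The summed level of 30 S phase markers ran from 3876 to 4075 CPM in untreated and from 3362 to 3463 CPM in IR libraries, and that of 30 G2 and M phase markers from 7083 to 7506 CPM and from 5011 to 5589 CPM, and the part of these in the members' changes was not tested. CPM values here use library sizes scaled by TMM, a normalization that assumes most genes do not change, and each fold change is IR over untreated.

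**Figure D1:**
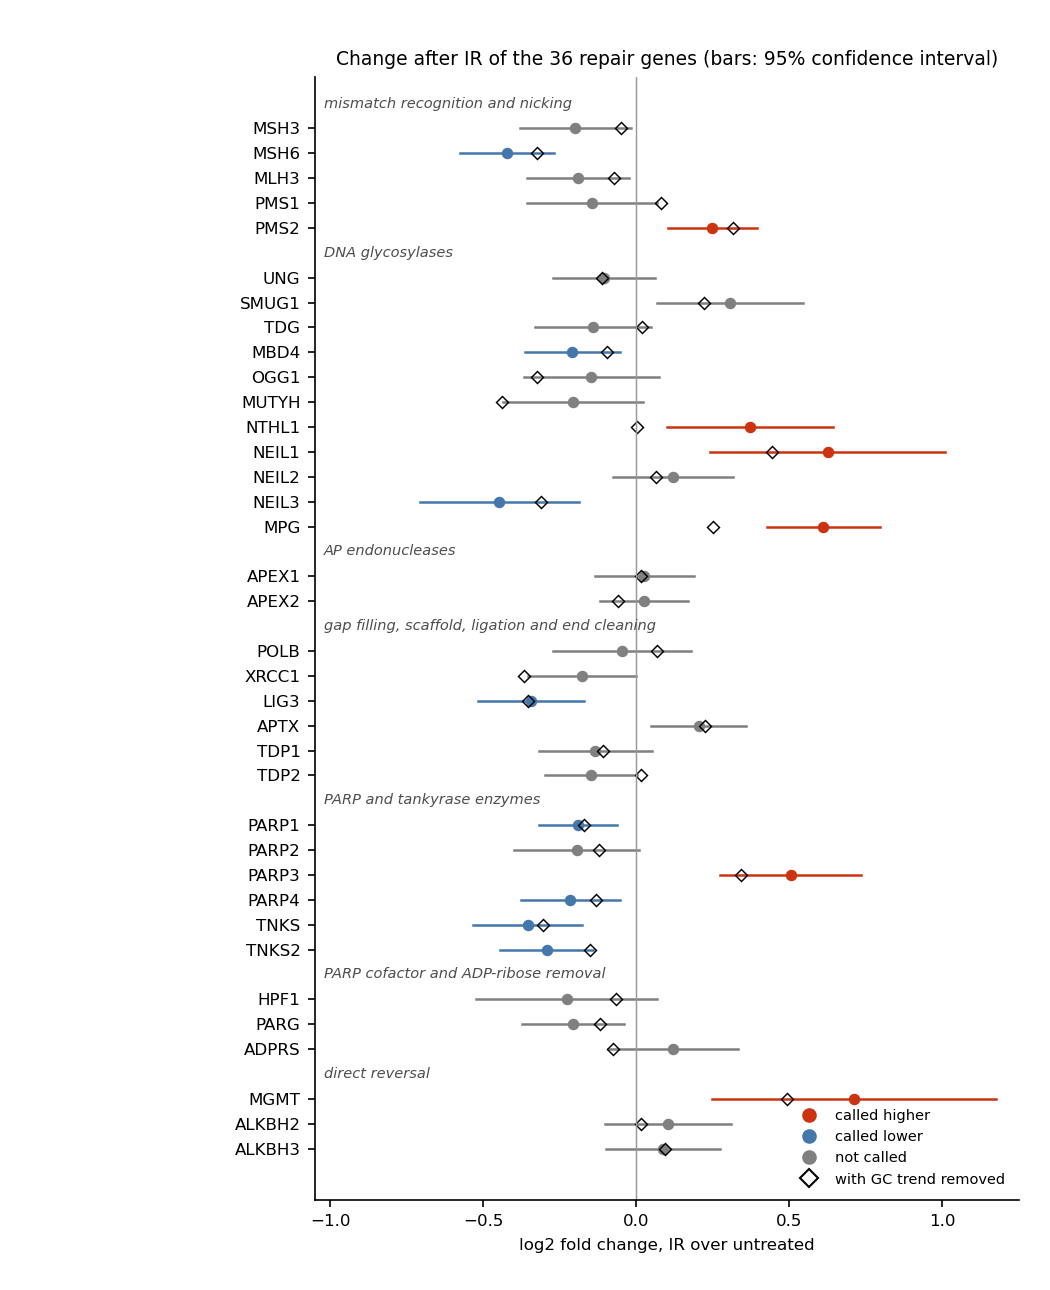
Log2 fold change (IR over untreated, 3 libraries each) of the 36 members grouped by role, with 95% confidence intervals as bars and colour for the call, and open diamonds for the value after removal of each library's GC trend. The 6 members called higher lie between 0.25 and 0.71 and the 8 called lower between -0.45 and -0.19.

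For the 4 members that were called in each of the 6 fits that leave out 1 library (MSH6, LIG3, MPG and PARP3), the sequence before the start of the canonical transcript is shown, because their calls, in both directions, did not hang on a single library. Each is the longest stretch of the 250 bases before the start that holds no annotated exon, from RefSeq on GRCh38.p14, on the plus strand, and capitals mark matches on either strand to a CCAAT box (CCAAT), a GC box (GGGCGG), a cell cycle homology region (TTTGAA) or an E2F-like motif (TTTCGCGC, TTTGGCGC, TTTCCCGC or TTTGCCGC).
MSH6 (chr2:47782895-47783081): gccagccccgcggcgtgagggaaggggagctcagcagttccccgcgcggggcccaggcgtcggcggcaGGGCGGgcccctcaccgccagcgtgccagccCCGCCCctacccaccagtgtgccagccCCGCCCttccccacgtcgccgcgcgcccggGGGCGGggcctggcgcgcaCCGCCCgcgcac
LIG3 (chr17:34980262-34980511): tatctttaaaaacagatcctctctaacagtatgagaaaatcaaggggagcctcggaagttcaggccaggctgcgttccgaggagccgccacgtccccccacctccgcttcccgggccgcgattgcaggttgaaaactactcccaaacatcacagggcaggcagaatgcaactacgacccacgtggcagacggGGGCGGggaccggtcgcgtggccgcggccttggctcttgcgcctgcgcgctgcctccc
MPG (chr16:77975-78224): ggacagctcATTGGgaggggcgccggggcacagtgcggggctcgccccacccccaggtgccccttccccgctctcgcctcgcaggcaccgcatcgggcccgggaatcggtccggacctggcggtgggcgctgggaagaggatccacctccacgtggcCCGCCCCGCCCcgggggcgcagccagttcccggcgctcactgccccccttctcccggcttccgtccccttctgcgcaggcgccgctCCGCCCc
PARP3 (chr3:51942113-51942344): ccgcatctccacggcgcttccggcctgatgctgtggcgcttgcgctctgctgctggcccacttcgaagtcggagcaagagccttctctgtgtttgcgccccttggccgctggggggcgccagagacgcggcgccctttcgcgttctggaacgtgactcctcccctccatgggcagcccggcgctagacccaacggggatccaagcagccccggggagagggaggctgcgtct
The stretch of MSH6 held 5 GC boxes, that of MPG 3 GC boxes and 1 CCAAT box, of which 2 GC boxes overlap by 1 base, that of LIG3 1 GC box, and that of PARP3 held none of the 4 motifs. Of the 36 members, 31 were matched in the RefSeq table. Over their full windows of 250 bases, a GC box was found in 22 of 31 (42.6% of all 35116 promoters), a CCAAT box in 18 of 31 (32.0%), a TTTGAA match in 4 of 31 (13.3%) and an E2F-like match in 2 of 31, MSH3 and PMS2 (2.79%). The median GC content of these windows was 64.4% for the members and 58% for all promoters. Among matched called members, a GC box was present in 4 of 6 that rose and 5 of 6 that fell, so the motif did not separate the directions. A match is a description of letters and not a measured binding site.

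Among the mismatch recognition and nicking genes, 1 of 5 fell, 1 of 5 rose and 3 were not called, where 14.5% of all genes fell and 15.5% rose. The median log2 fold change of these 5 was -0.19. MSH6 (ENSG00000116062, chr2:47695530-47810063, GRCh38, plus strand) encodes the MutS subunit that recognizes single-base mismatches. Replicates 1 to 3 read 284, 280.3 and 316 CPM untreated and 228, 218 and 211 CPM after IR. All 3 IR libraries lay below all untreated ones, and the level fell by 25.4% (log2 fold change -0.42 ± 0.07 SE, adjusted p = 0.0022, edgeR quasi-likelihood test). PMS2 (ENSG00000122512, chr7:5970925-6009130, minus strand), the subunit that nicks the DNA strand, moved the other way. Its libraries read 92.7, 99.7 and 97.0 CPM untreated and 118, 118 and 109 CPM after IR, again without overlap, a log2 fold change of 0.25 ± 0.07 SE (edgeR adjusted p = 0.018). PMS2 has near-identical pseudogene copies elsewhere in the genome, among which an assignment of reads by likelihood could divide them, so its level is uncertain.

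PMS1, a further MutL partner and the uncalled gene of highest level per length in this role, gave 32.6, 29.3 and 33.7 CPM untreated and 29.9, 31.4 and 25.6 CPM after IR. These ranges overlapped and the difference did not pass (log2 fold change -0.14, 95% interval -0.36 to 0.07, edgeR adjusted p = 0.28). MSH3, which recognizes larger loops together with a MutS partner, and MLH3, another MutL partner, were lower in each IR library without passing, at log2 fold changes of -0.20 (edgeR adjusted p = 0.090) and -0.19 (edgeR adjusted p = 0.082). MSH6 shares genomic sequence with FBXO11 on the opposite strand, and whether the counting used strand is not given in the sources used here.

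Of the 11 DNA glycosylases, which start base excision by cutting out a damaged base, 3 rose, 2 fell and 6 were not called (median log2 fold change -0.10). Of all genes, 15.5% rose and 14.5% fell. MPG (ENSG00000103152, chr16:77007-85851, plus strand), which removes alkylated purines, stood at 15.9, 15.6 and 15.6 CPM untreated and at 22.5, 23.7 and 25.6 CPM after IR. The untreated libraries differed by less than 1 CPM, all IR libraries lay above them, and the gene rose by 52.9% (log2 fold change 0.61 ± 0.08 SE, edgeR adjusted p = 0.0011). NEIL1 (chr15:75346955-75357115, plus strand), which removes oxidized pyrimidines, was scarce, at 3.08, 2.72 and 2.54 CPM untreated and 4.45, 3.98 and 4.41 CPM after IR. Its groups did not overlap either, and the log2 fold change was 0.63 ± 0.17 SE (edgeR adjusted p = 0.022). The leading NEIL1 transcripts by TPM were annotated as retaining an intron and not as protein coding. Of these, NEIL1-202 held 56.7%, 21.6% and 33.7% of the gene's counts untreated and 34.5%, 34.3% and 48.3% after IR. NEIL1-209 held 1.44%, 1.59% and 0% untreated and 16.9%, 25.7% and 6.64% after IR. Whether protein-coding NEIL1 transcripts rose was not tested. NTHL1 (chr16:2039815-2047866, minus strand), a glycosylase for oxidized pyrimidines with a lyase activity, read 10.1, 9.77 and 8.94 CPM untreated and 10.7, 12.8 and 13.6 CPM after IR. Its IR replicate 1 came close to the untreated libraries, and the log2 fold change was 0.37 ± 0.12 SE (edgeR adjusted p = 0.043).

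NEIL3 (chr4:177309874-177362936, plus strand), a relative of NEIL1 known to act on single-stranded DNA and on interstrand crosslinks at replication forks, fell. It was at 15.8, 18.4 and 15.9 CPM untreated and 14.1, 11.6 and 11.2 CPM after IR, a decrease of 26.7% (log2 fold change -0.45 ± 0.12 SE, edgeR adjusted p = 0.018). MBD4 (chr3:129430947-129440179, minus strand), which removes thymine and uracil opposite guanine at CpG sites, gave 43.5, 40.8 and 43.4 CPM untreated and 37.8, 37.9 and 35.1 CPM after IR. Although its groups did not overlap, MBD4 lay just inside the threshold, with a log2 fold change of -0.21 ± 0.07 SE (edgeR adjusted p = 0.048).

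UNG, the main uracil glycosylase, was at 67.6, 62.6 and 59.9 CPM untreated and 58.6, 55.4 and 62.4 CPM after IR, so the groups overlapped and the gene was not called (log2 fold change -0.10, 95% interval -0.27 to 0.06, edgeR adjusted p = 0.31). SMUG1, a second uracil glycosylase, read higher in each IR library and narrowly missed the threshold (log2 fold change 0.31, edgeR adjusted p = 0.054). TDG, which acts on thymine and uracil opposite guanine, OGG1, which removes oxidized guanine, MUTYH, which removes adenine opposite oxidized guanine, and NEIL2 were not called, at log2 fold changes of -0.14, -0.15, -0.21 and 0.12. Of the 4, MUTYH alone had groups without overlap, at 12.4, 12.4 and 11.6 CPM untreated and 9.83, 10.95 and 10.7 CPM after IR. MUTYH shares its locus with TOE1 on the opposite strand and with an overlapping gene model on its own strand, and MBD4, OGG1, NEIL1 and MPG overlap IFT122, CAMK1 and TADA3, MAN2C1 and NPRL3 on the opposite strand.

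Neither AP endonuclease was called. APEX1, the main enzyme that opens the backbone at an abasic site, was at 233, 227 and 217 CPM untreated and at 224, 251 and 215 CPM after IR. Its untreated and IR ranges overlapped almost fully, and the interval of the log2 fold change ran from -0.13 to 0.19 around 0.03 (edgeR adjusted p = 0.81). For APEX2, a related enzyme with exonuclease activity, the interval ran from -0.12 to 0.17 around 0.02 (edgeR adjusted p = 0.80). These intervals bound the change of both genes to under 0.2 on the log2 scale at 95% confidence, without showing that there was none.

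Of the 6 genes for gap filling, scaffolding, ligation and end cleaning, LIG3 fell and 5 were not called (median log2 fold change -0.14), where 14.5% of all genes fell. LIG3 (ENSG00000005156, chr17:34980512-35009743, plus strand), the ligase that works with XRCC1 and also serves mitochondrial DNA, was at 60.3, 64.0 and 59.0 CPM untreated and at 47.2, 52.8 and 44.9 CPM after IR. No IR library reached the untreated range, and the log2 fold change was -0.34 ± 0.08 SE (edgeR adjusted p = 0.0097). APTX, or aprataxin, which removes adenylate left on DNA ends by failed ligation, gave 55.4, 54.7 and 49.1 CPM untreated and 61.8, 60.1 and 61.4 CPM after IR. It lay above in all IR libraries but just outside the threshold (log2 fold change 0.20, edgeR adjusted p = 0.051). XRCC1, the scaffold, POLB, the gap-filling polymerase, TDP1 and TDP2, which free DNA ends from trapped topoisomerases, ran from -0.18 to -0.04 on the log2 scale and were not called. Per length, POLB was above APTX in untreated cells by the mean, at 55.2 beside 54.4 TPM. It read 27.0, 25.5 and 32.85 CPM untreated and 26.3, 27.1 and 29.1 CPM after IR, with overlapping groups (log2 fold change -0.04, edgeR adjusted p = 0.77). LIG3 overlaps CCT6B and RFFL on the opposite strand, and XRCC1 an unnamed gene model on its own strand.

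Among the PARP and tankyrase enzymes, 4 of 6 fell and 1 of 6 rose (median log2 fold change -0.20), where 14.5% of all genes fell and 15.5% rose. With each library's GC trend removed, 2 of 6, PARP1 and TNKS, fell and PARP3 rose. PARP1 (ENSG00000143799, chr1:226360210-226408154, minus strand), which makes most of the ADP-ribose chains at breaks, was at 377, 379.5 and 388 CPM untreated and 339, 334 and 329.8 CPM after IR. The spread within each group was under 6 CPM (SD), and the 12.4% decrease passed the test (log2 fold change -0.19 ± 0.06 SE, edgeR adjusted p = 0.031). PARP3 (ENSG00000041880, chr3:51942345-51948867, plus strand), a mono-ADP-ribosyltransferase that acts at double-strand breaks, moved in the opposite direction. It read 28.7, 27.0 and 22.6 CPM untreated and 33.6, 40.6 and 37.1 CPM after IR, a rise of 41.9% (log2 fold change 0.51 ± 0.10 SE, edgeR adjusted p = 0.0063). Untreated replicate 3 was the lowest library of PARP3, and the groups did not overlap.

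Both tankyrases, which modify telomere and spindle proteins as well as axin, fell. TNKS was at 75.4, 84.2 and 75.7 CPM untreated and 67.3, 59.3 and 57.7 CPM after IR (log2 fold change -0.35 ± 0.08 SE, edgeR adjusted p = 0.0097). The canonical TNKS-201 overlapped between groups, at 8.68, 9.43 and 8.12 TPM untreated and 7.94, 7.01 and 8.34 TPM after IR. TNKS-205, of 3897 bases, held 15.6%, 17.0% and 17.0% of the gene's counts untreated and 9.95%, 4.75% and 0% after IR. TNKS2 (chr10:91798426-91865475, plus strand) was at 91.2, 95.7 and 91.1 CPM untreated and 79.7, 70.5 and 76.6 CPM after IR (log2 fold change -0.29 ± 0.07 SE, edgeR adjusted p = 0.011). For both genes every IR library lay below every untreated one by the CPM summed per gene. PARP4 (chr13:24420931-24512778, minus strand), a component of vault particles, gave 91.7, 99.0 and 86.5 CPM untreated and 83.1, 74.99 and 80.6 CPM after IR, and lay just inside the threshold (log2 fold change -0.22 ± 0.07 SE, edgeR adjusted p = 0.049). PARP2, which shares the break response with PARP1, read 84.5, 85.6 and 87.9 CPM untreated and 81.5, 80.6 and 64.2 CPM after IR. Its IR replicate 3 was far below the other IR libraries, and PARP2 was not called (log2 fold change -0.19, 95% interval -0.40 to 0.01, edgeR adjusted p = 0.14), with -0.08 when IR replicate 3 was left out.

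None of the 3 genes for the PARP cofactor and for removal of ADP-ribose was called by edgeR. HPF1, the factor that turns PARP1 and PARP2 towards serine residues, was at 23.8, 28.0 and 31.3 CPM untreated and 27.0, 25.2 and 19.6 CPM after IR, with overlapping groups (log2 fold change -0.23, 95% interval -0.52 to 0.07, edgeR adjusted p = 0.22). PARG, the glycohydrolase that degrades the chains, was lower in each IR library but not called (log2 fold change -0.21, edgeR adjusted p = 0.062), and it too has pseudogene copies and overlaps TIMM23B on the opposite strand. ADPRS, which removes the last ADP-ribose from serine, had a log2 fold change of 0.12 with an interval from -0.09 to 0.33. Over these 3 genes the unadjusted p was under 0.05 for PARG, and over all 36 members it was under 0.05 for 20 (55.6%, beside 42.0% of all genes tested).

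Of the 3 direct reversal genes, MGMT rose and ALKBH2 and ALKBH3 were not called. MGMT (chr10:129467190-129770983, plus strand), which takes the alkyl group from guanine onto itself, had the lowest level of the list, at 2.69, 2.77 and 2.15 CPM untreated and 3.73, 3.54 and 5.05 CPM after IR. The groups did not overlap, IR replicate 3 stood well above the other IR libraries, and the log2 fold change was 0.71 ± 0.21 SE with an interval from 0.25 to 1.18 (edgeR adjusted p = 0.028). ALKBH3, a demethylase of single-stranded DNA and RNA, was at 16.9, 17.8 and 19.0 CPM untreated and 19.3, 18.2 and 19.4 CPM after IR, and ALKBH2, its counterpart for double-stranded DNA, had a log2 fold change of 0.10 (edgeR adjusted p = 0.42). The interval for ALKBH3 ran from -0.10 to 0.27 around 0.09 (edgeR adjusted p = 0.46). For each of the 22 members without overlap between groups, the two-sided exact permutation test over 3 against 3 libraries gave 0.1, which is the smallest p-value that it allows.

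Levels per length spanned a wide range. In untreated cells, APEX1 stood highest at 227 ± 3.13 TPM (SD, n = 3), followed by MSH6 at 183 ± 47.2 TPM, PARP1 at 169.7 ± 10.6 TPM and PARP2 at 82.0 ± 2.35 TPM. The lowest were NTHL1 at 10.6 ± 0.11 TPM, NEIL1 at 2.67 ± 0.56 TPM and MGMT at 1.91 ± 0.25 TPM. In this order, 7 of 35 neighbouring pairs had untreated ranges that did not overlap, so most neighbours could not be ranked. The glycosylases ran from 40 TPM for MBD4 and 35.6 TPM for UNG down to NEIL1. Estimated counts for a member in a library ran from 44 to 14893, and the scarce members MGMT and NEIL1 had the widest errors of the fold change.

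The TPM of MSH6, PARP1 and LIG3 depended on short transcripts that were nearly lost in IR replicate 3. An MSH6 transcript of 548 bases was at 53.4, 51.4 and 126 TPM untreated and at 40.1, 36.3 and 5.95 TPM after IR, while the leading MSH6 transcript, of 3959 bases, was at 93.5, 92.5 and 102 TPM and at 73.5, 66.7 and 70.6 TPM. The long transcript thus separated the groups without IR replicate 3 standing apart. A PARP1 transcript of 542 bases read 41.6, 46.7 and 1.29 TPM in the IR libraries, and a LIG3 transcript of 235 bases annotated for nonsense-mediated decay (NMD) read 25.8, 19.2 and 2.73 TPM. The canonical PARP1 transcript, of 3978 bases, read 110.1, 113 and 113 TPM untreated and 98.7, 89.8 and 108 TPM after IR. By counts, transcripts under 1000 bases held 4.07% to 6.93% of MSH6 in untreated and 0.56% to 4.44% in IR libraries, 3.65% to 4.51% and 0.35% to 4.67% of PARP1, and 13.7% to 16.1% and 8.01% to 9.20% of LIG3. When counts were summed only over transcripts of at least 1000 bases, an alternative chosen after seeing the data, the log2 fold changes were -0.39 for MSH6 and -0.17 for PARP1, both still called, and -0.24 for LIG3, which was then not called.

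The transcript with the highest TPM was protein coding for 32 of 36 members and the canonical one for 19 of 36. For UNG, whose transcripts differ in their first exon, UNG-201, which encodes the nuclear form, held 89.6% to 97.4% of the counts in every library and UNG-202, which encodes the mitochondrial form, 0% to 8.26%. Transcript usage could be tested for 28 members, of which 2 were called (2.68% of the 10661 genes tested were called) and 3 had an unadjusted p under 0.05. These were APTX (adjusted p = 0.0063, diffSpliceDGE of edgeR) and MPG (adjusted p = 0.037, diffSpliceDGE of edgeR), each called in 3 of 8 alternatives, and neither was called when 10 counts were required in every library. For APTX the leading transcripts were APTX-211, an NMD transcript at 5.57, 7.13 and 8.54 TPM untreated and 8.74, 9.03 and 7.26 TPM after IR, and the canonical APTX-203, at 3.14, 6.20 and 4.68 TPM and 12.6, 6.10 and 12.4 TPM. For MPG they were MPG-202, at 14.3, 12.5 and 10.4 TPM untreated and 13.9, 20.4 and 25.2 TPM after IR, and MPG-203, listed at 0 in every untreated library and at 6.84, 0.89 and 3.71 TPM after IR. The split among similar transcripts is an estimate by kallisto and was unsteady within groups.

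**Figure D2:**
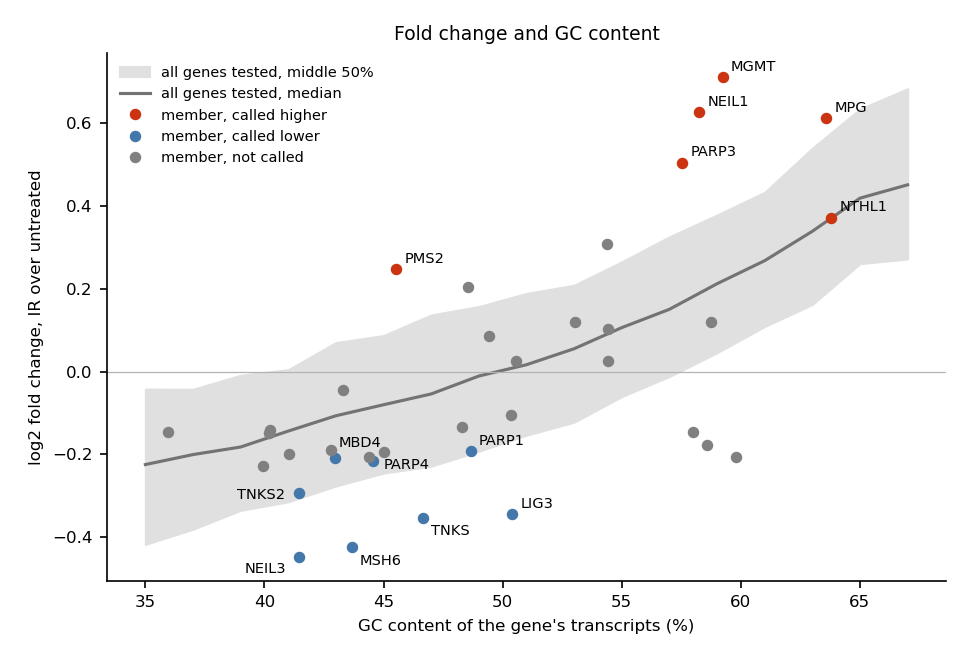
Log2 fold change (IR over untreated) against the GC content of each gene's transcripts in percent, for the 36 members (points, coloured by call) and for all 14322 genes tested (line for the median and band for the middle 50% in steps of 2 percentage points). Of the 36 members, 22 lie inside the band of their GC step, 7 above it (PMS2, APTX, SMUG1, PARP3, NEIL1, MGMT and MPG) and 7 below it (NEIL3, MSH6, TNKS, LIG3, OGG1, XRCC1 and MUTYH).

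Fold changes in these libraries rose with the GC content of the transcripts, and the members shared this relation. Spearman's rho across genes, given as a description since genes of the same libraries are not independent replicates, was 0.59 over the 36 members and 0.50 over all genes tested. Of the 13 members with GC below 45%, 5 fell and 0 rose (26.7% and 4.77% of all genes in that range). Between 45% and 55%, 3 of 14 fell and 1 rose (12.3% and 10.98%), and at 55% and above, 5 of 9 rose and 0 fell (33.96% and 2.39%). The directions of the members therefore fell along the GC scale as those of all genes did. Median log2 fold changes of genes within 1 percentage point of GC were -0.10 for MSH6, -0.07 for PMS2, 0.02 for LIG3, 0.36 for MPG, 0.15 for PARP3 and 0.37 for NTHL1, beside the members' own -0.42, 0.25, -0.34, 0.61, 0.51 and 0.37. NTHL1 thus sat on the median of genes of its GC content, whereas PMS2 and LIG3 lay on the other side of 0 from theirs.

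With the GC trend of each library removed, 11 of 36 members (30.6%) were called beside 24.2% of all genes, 4 higher and 7 lower, and the median of the members was -0.06. The calls of 7 of the 14 remained: MSH6 (-0.32), PMS2 (0.32), LIG3 (-0.35), MPG (0.25), PARP1 (-0.17), PARP3 (0.34) and TNKS (-0.30). Those of MBD4 (-0.10), NTHL1 (0.0038), NEIL1 (0.45), NEIL3 (-0.31), PARP4 (-0.13), TNKS2 (-0.15) and MGMT (0.49) did not pass. A further 4 members, not called as reported, were called in that fit: OGG1 (-0.32), MUTYH (-0.44), XRCC1 (-0.37) and APTX (0.23). The GC content of a gene is a property of its sequence and the trend is one of the libraries, and what part of it was technical was not tested.

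Over 16 alternatives, MSH6 and PARP3 were called in 16, MPG in 15, TNKS in 14, LIG3 in 13, PMS2 in 12, TNKS2 in 11, NEIL3 in 10, PARP1 in 8, NEIL1 and MGMT in 7, PARP4 in 6, NTHL1 in 4 and MBD4 in 3. The values of MSH6 ran from -0.71 to -0.29, those of PARP3 from 0.31 to 0.60 and those of MPG from 0.25 to 0.77. Without IR replicate 3, which stood apart, 10 of the 14 calls were kept, and MBD4 (-0.17), NTHL1 (0.29), NEIL1 (0.60) and MGMT (0.52) were not called. Leaving out another single library also ended calls. Without untreated replicate 1 these were PMS2 (0.22), MBD4 (-0.19), NTHL1 (0.41), PARP1 (-0.20), PARP4 (-0.22) and MGMT (0.75). Without untreated replicate 2 they were MBD4 (-0.24), NTHL1 (0.39), NEIL1 (0.61), NEIL3 (-0.37), PARP1 (-0.19), PARP4 (-0.16), TNKS (-0.30), TNKS2 (-0.27) and MGMT (0.78). Without untreated replicate 3 they were MBD4 (-0.19), NTHL1 (0.32), NEIL1 (0.57), PARP1 (-0.18) and MGMT (0.61). Without IR replicate 1, PMS2 (0.21) and NEIL1 (0.59) were not called, and SMUG1 (0.39) and PARG (-0.27) were. Without IR replicate 2 the calls of PMS2 (0.23), MBD4 (-0.23), NTHL1 (0.35), NEIL3 (-0.41), PARP1 (-0.19) and PARP4 (-0.18) ended. In each of these fits the called members kept their direction.

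Genes that act with the members were described by lists chosen by function. The counts of these lists stand beside 14.5% of all genes tested that fell and 15.5% that rose. Of 20 genes that mismatch and long-patch repair share with replication, 6 fell and 1 rose (median log2 fold change -0.12). The largest decreases were in EXO1, the exonuclease that removes the mismatched strand (-0.46 ± 0.07 SE, edgeR adjusted p = 0.0013), and POLD3, a subunit of DNA polymerase delta (-0.44 ± 0.09 SE, edgeR adjusted p = 0.0060), and the gene that rose was POLD4, another subunit of the same polymerase (0.52 ± 0.18 SE, edgeR adjusted p = 0.047). The other 13 were not called. Of 11 tested base excision and break end factors, 2 rose and 3 fell, among them POLL (0.36), a gap-filling polymerase, and HMGB1 (-0.37) and PARPBP (-0.37).

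Of 20 further PARP family and ADP-ribose genes, 1 rose and 1 fell, with a median of 0.05. PARP10, a mono-ADP-ribosyltransferase, rose by 0.89 ± 0.13 SE on the log2 scale (edgeR adjusted p = 0.0013), and PARP11 fell by 0.27 (edgeR adjusted p = 0.046). Of 14 genes for nucleotide pool sanitation and NAD supply, 5 rose and 1 fell, with a median of 0.16. NAPRT (0.71) and NADSYN1 (0.62), enzymes of NAD synthesis from nicotinic acid, had the largest increases, and SAMHD1, which degrades deoxynucleotides, was the one that fell (-0.24). Among 8 other direct reversal and demethylase genes, ALKBH7 (0.60) and ALKBH6 (0.50) rose and none fell. With the GC trend removed, the counts of these 5 lists became 0 higher and 6 lower, 1 and 1, 3 and 0, 2 and 0, and 1 and 0. In that fit 24.2% of all genes were called in either direction.

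Of the 30 S phase markers, 17 fell and 0 rose (median -0.23), and of the 30 G2 and M phase markers, 22 fell and 0 rose (median -0.40), the latter with MKI67 at -1.10. With the GC trend removed these counts were 15 and 23. The members MSH6, LIG3 and NEIL3 fell alongside these lists, while PMS2 rose, and whether fewer cycling cells account for any member's decrease was not tested.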

How the data were processed

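The RNA-seq libraries, 3 untreated and 3 IR, were grouped by the sample labels. The authors trimmed reads with fastp and assigned them with kallisto to GENCODE 37 transcripts of GRCh38. Per transcript, the authors deposited an estimated count with no normalization and a TPM value, which corrects for effective length and depth. Transcripts were matched by identifier to GENCODE 44 (158591 of 161171; the rest held 1.56% to 1.83% of counts). Estimated counts were summed per gene, rounded, filtered by filterByExpr, scaled by TMM and tested over all genes by the quasi-likelihood test of edgeR 4.0.16 (R 4.3.3), with Benjamini-Hochberg adjustment. Standard errors were obtained by dividing the size of a log2 fold change by the root of its F statistic. The GC trend was a lowess fit (span 0.3) per library. Depth limits the scarce members, and errors cover these libraries only. The members and lists were chosen with earlier results of these data known.

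Every member that was called is given by library, as is the uncalled member of highest mean TPM over all libraries in each role. POLB and MUTYH are also given by library, and the others by fold change. Of other genes, at most 2 called genes per direction and list are named by the largest change. Some genes that this rule selects are left out here. For transcripts, the leading one of each member was examined, and the leading 2 of a member called for usage. The short transcripts of MSH6, PARP1 and LIG3, the transcripts named for NEIL1 and TNKS, and the 4 promoters were chosen after their values were seen. Transcript usage was tested with diffSpliceDGE. On simulated data with changes larger than those of most members, the gene test recovered most of them. Its recovery of smaller changes was not tested. The usage test, also on simulated data, recovered few changes at the spread of these transcripts and made false calls, and recovered most at a small assumed spread. Usage calls therefore carry little weight. Alternatives were DESeq2 1.42.0 (size factors, Wald test), other filters, a replicate block, GC trend removal, a length offset, leaving out each library, and, added after seeing the data, transcripts of at least 1000 bases.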

Additional observations from a re-analysis of the deposited data

How the results depend on the processing

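As reported, 6 members were called higher and 8 lower, among 2226 and 2080 of all genes, and the members' median log2 fold change was -0.14. With the effective length offset, 2 and 1 members were called, MPG and PARP3 higher and MSH6 lower, among 836 and 875 genes, with a median of -0.053. That offset also follows kallisto's estimate of effective length, and the cause of the loss was not tested. Removal of the GC trend gave 4 and 7 members and a median of -0.063, and with a replicate block beside it 3 members higher, 1473 genes higher and a median of -0.061. The replicate block alone left 4 and 5 members. Deviations of libraries with the same number did not go together (correlations of -0.017, 0.007 and -0.052), so the numbers were not read as pairs. Summing only transcripts of at least 1000 bases with the GC trend removed left 4 members lower, 1237 genes higher and a median of -0.078, and turned NTHL1 to -0.022. Leaving out each library in turn gave 3 to 5 members higher, 2 to 9 lower, 1293 to 2112 genes higher, 1244 to 2282 genes lower, and medians from -0.17 to -0.09. For transcript usage, the numbers of members and genes called went from 2 (APTX and MPG) and 286 to 0 and 64 with at least 10 counts in every library, 1 and 149 with the replicate block, and 1 to 2 and 228 to 444 without one library. These were not the same members throughout: MSH3 and PARG, and neither APTX nor MPG, were called without untreated replicate 2, SMUG1 and MPG without IR replicate 2, and each other such fit called APTX or MPG alone. The filter on low counts, the size factors and the Wald test of DESeq2 each kept the member counts within 1.5 times. Over the 36 members and 16 alternatives, 476 of 576 values kept their call and its direction, or remained uncalled. Of the rest, 81 were lost calls, all of members called as reported, 18 were calls gained by uncalled members, and 1 was NTHL1 with its direction turned. The pooled figure includes the uncalled members, most of whose values stayed uncalled, and calls held less often than it. Depth limits MGMT and NEIL1 most, which had the fewest counts.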
